A study of Canis lupus familiaris with 45 samples.

Results

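Insulin and the insulin-like growth factors bind receptor tyrosine kinases at the cell surface, and the signal passes through insulin receptor substrate proteins to phosphoinositide 3-kinase, then to the Akt kinases and to mTOR, a kinase that promotes protein synthesis and restrains autophagy. In the heart this pathway is known for its part in growth of the cardiomyocyte, glucose uptake and cell survival. The genes described here were 10 members of that pathway, namely MTOR, INSR, IGF1, IGF1R, IRS1, IRS2, AKT1, AKT2, PIK3CA and PIK3R1, measured by every array probe set annotated to 1 of these symbols and to no other gene. Of the 10 genes, 4 had such a probe set: MTOR with 7, PIK3R1 with 3, IGF1 with 2 and AKT2 with 1. These 13 probe sets were among 10549 that carried a single symbol, which named 6540 genes. The insulin receptor INSR, the IGF1 receptor IGF1R, the docking proteins IRS1 and IRS2, the kinase AKT1 and the catalytic subunit PIK3CA had none under the rule and were not analysed here.

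The study followed heart failure brought on by rapid pacing of the right ventricle in dogs that were all male and matched for age. Transmural tissue of the left ventricle was taken from 5 groups of 3 dogs: unpaced controls (Day-0) and dogs paced at 240 beats per minute for 3 days (Day-3), for 1 week (Week-1), for 2 weeks (Week-2) or for 3 to 4 weeks (End-stage). The labels do not say whether the unpaced dogs had the surgery that placed the pacemaker. Each piece of tissue gave 3 separate RNA isolations with 1 array apiece, 45 arrays in all. The value of a dog is the mean of the log2 signal over its 3 arrays, and a signal printed for a dog is that mean turned back to the linear scale. Each comparison with Day-0 rests on the same 3 unpaced dogs.

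Median signals of single arrays ran from 33.3 to 48.6, and those of End-stage dog 1 alone from 35.1 to 48.6. As a measure of RNA quality, the ratio of the 3' to the 5' GAPDH control probe sets was 0.88 to 1.02 per dog. Of 45 arrays, 38 had another array of the same dog as their nearest neighbour. Of the 7 exceptions, 4 were arrays of dog 1 of Week-1 or dog 1 of End-stage, and 2 of these 4 were nearest to an array of the other of these dogs. Of 10 cardiomyocyte markers 7 were on the array and all 7 were among the brightest probe sets, with a mean log2 signal of 12.6 to 13.3 in every dog. Dog 1 had the lowest mean of these markers in each of the 5 groups, 12.58 to 12.75 against 12.89 to 13.29 in the other dogs. The labels do not say what, if anything, dogs with the same number share. In tissue that mixes cell types, a lower signal from fewer cells of a type and one from less RNA per cell cannot be told apart.

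No probe set of the 4 genes passed the test used. Few probe sets of any gene passed it, and a missed threshold does not show that a level stayed the same. Probe sets in the dimmest 40% (mean signal below 22.8) were left out, so 8 of the 13 probe sets were tested: 4 of MTOR, 2 of PIK3R1 and 1 each of IGF1 and AKT2. With limma and Benjamini-Hochberg adjustment over all 14302 probe sets tested, 0 of the 8 passed an adjusted p of 0.05 at Day-3, where 0% of all probe sets did. The count was also 0 of 8 at Week-1 against 0.028% of all probe sets, at Week-2 against 0.0839%, at End-stage against 0.014%, for all paced groups together against Day-0 (0.301%), and for the linear trend over the 5 stages (0.0489%). The 3 comparisons of consecutive paced groups and the F test for any difference among the groups called 0 of the 8 and 0% of all probe sets. At an unadjusted p of 0.05, limma passed 0 of the 8 at Day-3, 1 at Week-1, 0 at Week-2, 2 at End-stage, 1 for all paced groups, 1 for the trend and 0 for the F test. The corresponding shares of all probe sets were 8.07%, 9%, 11.2%, 8.23%, 11.7%, 8.61% and 7.37%. Between consecutive paced groups the unadjusted counts were 0, 0 and 1 of 8, against 4.82%, 5.78% and 4.2% of all probe sets.

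A second reading asked whether the 3 dogs of a paced group were all higher than, or all lower than, the 3 Day-0 dogs. At Day-3 this held for 0 of the 8 probe sets, where it held for 12.6% of all probe sets in either direction. At Week-1 it held for 2 of 8 against 16.1%, at Week-2 for 1 of 8 against 17.3%, and at End-stage for 2 of 8 against 14.3%. All 12 paced dogs lay outside the Day-0 range for 0 of 8 members and for 2.52% of all probe sets. Among the 8 tested probe sets, all of these cases were probe sets of MTOR. Of those below the filter, IGF1 1582987_at lay above Day-0 at Day-3 and PIK3R1 1595006_at below it at End-stage.

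**Figure D1:**
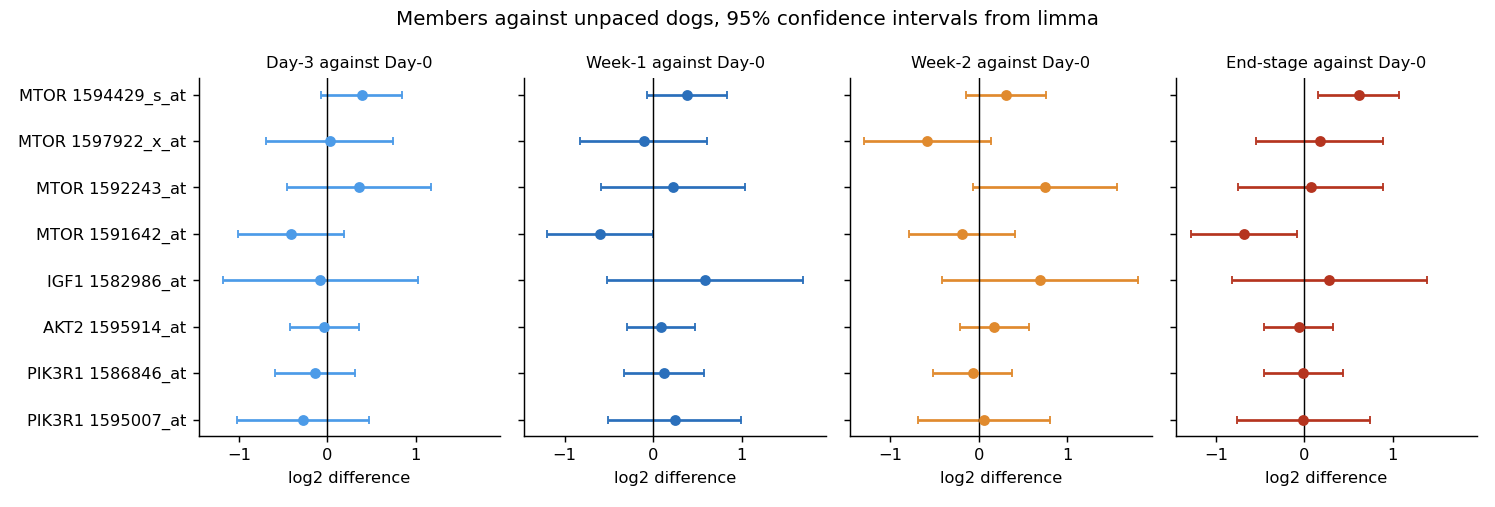
Log2 difference from Day-0 (x axis) of each of the 8 tested member probe sets (y axis), 1 panel for each paced group, with points for the limma estimate and bars for its 95% confidence interval, n = 3 dogs per group. The End-stage intervals of MTOR 1594429_s_at (0.16 to 1.07) and MTOR 1591642_at (-1.28 to -0.08) lie on opposite sides of 0, and the intervals of AKT2 and PIK3R1 all include 0.

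IGF1 encodes a secreted growth factor that activates the IGF1 receptor. It had 2 probe sets, drawn from the same transcript record, and both were dim. The tested one, 1582986_at, had signals of 12.02, 25.5 and 35.7 in Day-0 dogs 1 to 3, of 14.9, 50.7 and 12.3 at Day-3, of 35.1, 29.6 and 35.3 at Week-1, of 27.3, 63.1 and 26.9 at Week-2, and of 36.8, 25.7 and 20.9 at End-stage. The groups overlapped, with the highest signals in 1 dog each of Week-2 and Day-3. Its log2 difference from Day-0 ran from -0.08 at Day-3 to 0.69 at Week-2, with an SE of 0.52. With 1 dog left out at a time the Week-2 value lay between 0.25 and 1.04 and the Week-1 value between 0.14 and 0.93. The lowest limma adjusted p of the 4 comparisons was 0.688 (n = 3 dogs per group).

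The other IGF1 probe set, 1582987_at, fell below the filter and was not tested. Its signals were 10.9, 16.01 and 5.1 in the Day-0 dogs, 24.98, 17.9 and 70.9 at Day-3, 14.3, 15.6 and 60.6 at Week-1, 16.5, 17.0 and 9.7 at Week-2, and 13.8, 18.1 and 41.8 at End-stage. Dog 3 was the highest of its group at Day-3, Week-1 and End-stage, and the lowest at Day-0 and Week-2. All 3 Day-3 dogs lay above the Day-0 dogs, by 1.72 on the log2 scale (SD 0.83 among Day-0 dogs and 1.04 among Day-3 dogs), and the other paced groups overlapped them. The isolations of a dog also differed widely, from 39.96 to 101 in Day-3 dog 3 and from 4.0 to 48.4 in Day-0 dog 1.

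This second IGF1 probe set was high in the same dogs as the macrophage and fibroblast markers. Over 15 dogs its log2 signal correlated with the mean log2 signal of the macrophage markers at Pearson's r = 0.885 (permutation p = 2e-05, adjusted p = 0.00182 over 91 pairs of member probe set and marker list) and Spearman's rho = 0.768 (permutation p = 0.00133, adjusted p = 0.0605). Without the 2 dogs farthest from the median r was 0.728, and after removal of the group means it was 0.899. For the fibroblast markers r was 0.805 (permutation p = 0.00023, adjusted p = 0.0105) and rho 0.793 (permutation p = 0.00056, adjusted p = 0.051), with r = 0.636 without the 2 farthest dogs and 0.891 within groups. With the means of the dog numbers removed as well as those of the groups, r was 0.918 for the macrophage and 0.892 for the fibroblast markers. Of 8 macrophage markers 7 were on the array, and their summed signal was 529 to 686 in the Day-0 dogs, 584 to 1012 at Day-3, 516 to 971 at Week-1, 599 to 782 at Week-2 and 606 to 782 at End-stage. Of 8 fibroblast markers 5 were on the array, with POSTN near the floor at a mean signal of 2.02, and the summed signal was 5622 to 8560 at Day-0 and 6150 to 10453 at Day-3. The fat cell gene ADIPOQ had its highest signals in 2 of the same dogs, 285 in Day-3 dog 3 and 383 in Week-1 dog 3, against 13.8 to 118 in the other 13. Of 4 adipocyte markers 2 were on the array, and their relation to this probe set did not pass the threshold. There r was 0.614 (permutation p = 0.016, adjusted p = 0.364) and rho 0.368 (permutation p = 0.179, adjusted p = 0.831). Without the 2 farthest dogs r was -0.00608, and within groups it was 0.761. The part of macrophages, fibroblasts or fat cells in the IGF1 signal was not tested. For the tested IGF1 probe set the sign was the opposite and the threshold was not passed (r = -0.324, permutation p = 0.238, adjusted p = 0.773 with the macrophage markers, rho = -0.229, permutation p = 0.413, adjusted p = 0.894; r = -0.225 without the 2 farthest dogs and -0.392 within groups).

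PIK3R1 encodes the p85 alpha regulatory subunit, which holds the catalytic subunit of phosphoinositide 3-kinase and brings it to activated receptors. Its probe set 1586846_at was bright and had signals of 1489, 1302 and 1450 in the Day-0 dogs, of 1616, 1183 and 1095 at Day-3, of 1313, 2077 and 1332 at Week-1, of 1632, 1256 and 1190 at Week-2, and of 1130, 1783 and 1364 at End-stage. Single dogs stood high in Week-1 and End-stage, and every paced group overlapped Day-0. The differences from Day-0 ran from -0.14 (Day-3) to 0.12 (Week-1) with an SE of 0.21 on the log2 scale, and the End-stage difference was -0.01 with a 95% confidence interval of -0.46 to 0.44.

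A second PIK3R1 probe set, 1595007_at, ordered the dogs in nearly the same way. Its signals were 159, 130 and 168 at Day-0, 250, 103 and 75.9 at Day-3, 140, 232 and 177 at Week-1, 226, 138 and 126 at Week-2, and 134, 182 and 140 at End-stage. Day-3 dog 1, Week-1 dog 2, Week-2 dog 1 and End-stage dog 2 led their groups on both probe sets. Over 15 dogs the pair correlated at r = 0.844 (permutation p = 9e-05, adjusted p = 0.00225 over 25 pairs) and rho = 0.921 (permutation p = 3e-05, adjusted p = 0.00075), with r = 0.889 without the 2 dogs farthest from the median, 0.836 within groups and 0.868 with the means of groups and dog numbers removed. The spread between dogs of a group was shared by both readings of PIK3R1, while the differences from Day-0 of the second probe set stayed between -0.28 (Day-3) and 0.24 (Week-1), SE 0.35. The third probe set, 1595006_at, came from the same transcript record as the second, was dim and not tested, and lay below Day-0 in all 3 End-stage dogs: 16.1, 22.2 and 20.9 against 26.5, 30.001 and 24.4.

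AKT2 encodes the Akt isoform best known for insulin-stimulated glucose uptake. Its single probe set 1595914_at had signals of 96.9, 99.1 and 104 in the Day-0 dogs, of 103, 99.6 and 90.0 at Day-3, of 107, 129 and 87.2 at Week-1, of 117, 101 and 122 at Week-2, and of 96.7, 74.9 and 121 at End-stage. The Week-1 and End-stage dogs were spread on both sides of the Day-0 dogs, and every group overlapped. The largest difference from Day-0 was 0.18 at Week-2 (SE 0.18, 95% confidence interval -0.21 to 0.56) and the smallest limma adjusted p of the 4 comparisons was 0.8 (n = 3 dogs per group). The End-stage difference was -0.06 with an interval of -0.45 to 0.32.

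**Figure D2:**
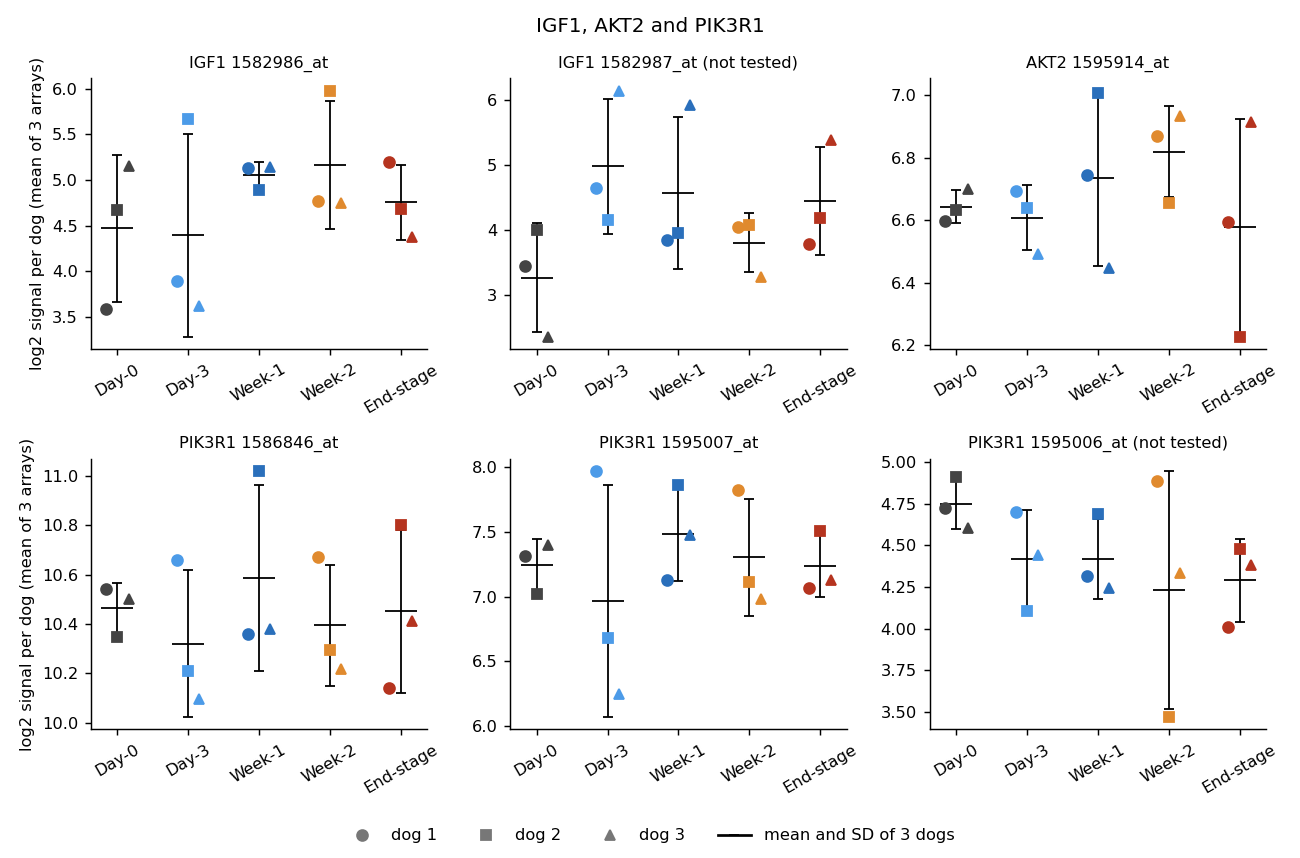
Log2 signal per dog (y axis) by group (x axis) for the 2 IGF1, 1 AKT2 and 3 PIK3R1 probe sets, each point 1 dog with its number as the shape, and black bars for the mean and SD of 3 dogs. Dog 3 leads IGF1 1582987_at at Day-3, Week-1 and End-stage, and AKT2 stays between 6.23 and 7.01. Both brighter PIK3R1 panels share their leading dogs in the paced groups but not at Day-0.

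MTOR encodes the kinase shared by both mTOR complexes. Its brightest probe set, 1594429_s_at, had signals of 63.6, 70.2 and 76.8 in the Day-0 dogs, of 103, 71.1 and 105 at Day-3, of 99.1, 79.8 and 96.6 at Week-1, of 95.2, 60.9 and 112 at Week-2, and of 105, 110 and 107 at End-stage. The 3 End-stage dogs lay close together and above every Day-0 dog, the 3 Week-1 dogs also lay above, and dog 2 of Day-3 and of Week-2 fell within or below the Day-0 range. The End-stage difference was 0.61 on the log2 scale, or 1.53-fold (SE 0.21, 95% confidence interval 0.16 to 1.07, unadjusted p = 0.0117, limma adjusted p = 0.396, n = 3 dogs per group). The difference was 0.39 at Day-3, 0.38 at Week-1 and 0.31 at Week-2, with adjusted p of 0.7, 0.651 and 0.657 in the same limma fit. Over all paced groups it was 0.42 (SE 0.17, limma adjusted p = 0.321), with 11 of 12 paced dogs above the Day-0 mean, and the trend was 0.11 per stage (SE 0.05, adjusted p = 0.49).

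Ordered by group mean, the signal of this MTOR probe set was 70.0 at Day-0, 86.6 at Week-2, 91.4 at Week-1, 91.6 at Day-3 and 107 at End-stage. Dogs overlapped between Day-0 and Week-2, between Week-2 and Week-1 and between Week-1 and Day-3. Day-3 dog 3 reached the End-stage range, and Week-2 dog 3, at 112, lay above all End-stage dogs. Week-1 and Day-3 differed by 0.0022 on the log2 scale with an SE of 0.21.

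The probe set 1591642_at, also annotated to MTOR alone, ran the other way. Its signals were 38.3, 50.7 and 42.5 at Day-0, 45.1, 32.3 and 24.0 at Day-3, 29.9, 33.2 and 23.9 at Week-1, 31.2, 51.4 and 34.7 at Week-2, and 24.97, 23.1 and 35.0 at End-stage. All Week-1 and all End-stage dogs lay below the lowest Day-0 dog, and 1 dog each of Day-3 and Week-2 lay within or above the Day-0 range. The End-stage difference was -0.68 (SE 0.28, 95% confidence interval -1.28 to -0.08, unadjusted p = 0.0292, limma adjusted p = 0.529, n = 3 dogs per group) and the Week-1 difference -0.60 (unadjusted p = 0.0498, limma adjusted p = 0.555). Over all paced groups it was -0.47 (SE 0.22, adjusted p = 0.433 with limma), and 2 of 12 paced dogs lay above the Day-0 mean. Day-3 and Week-2 gave -0.41 and -0.19 with an SE of 0.28.

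**Figure D3:**
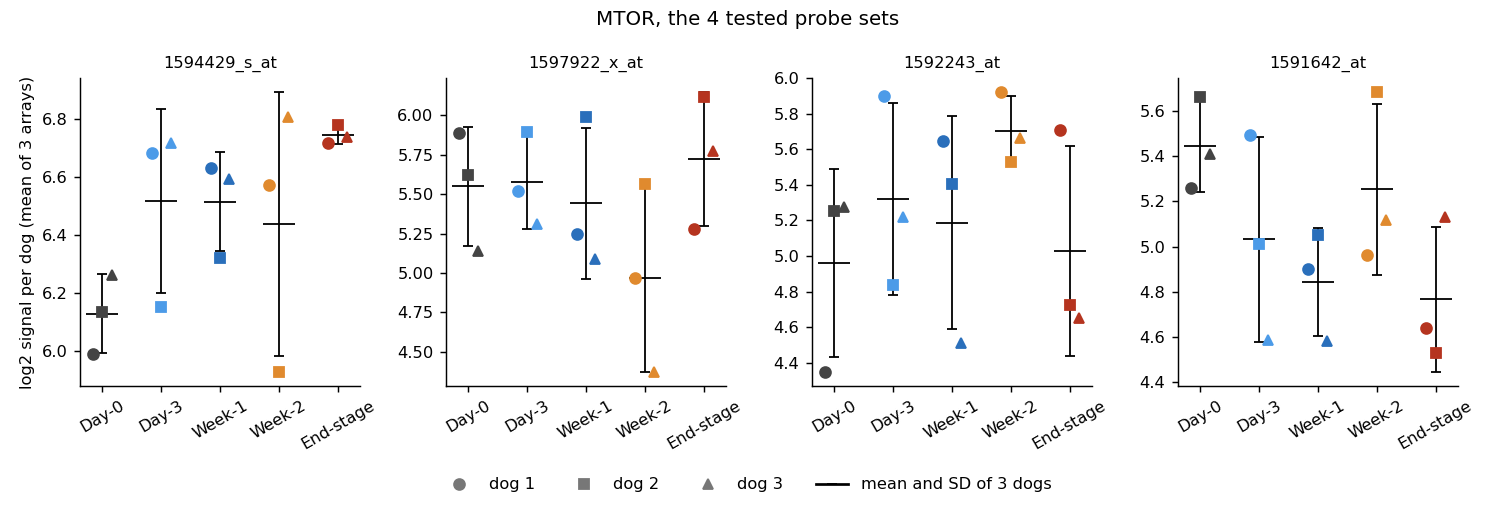
Log2 signal per dog (y axis) by group (x axis) for the 4 tested MTOR probe sets, each point 1 dog with its number as the shape, and black bars for the mean and SD of 3 dogs. In 1594429_s_at the End-stage dogs sit at 6.72 to 6.78 above the Day-0 range of 5.99 to 6.26, whereas in 1591642_at they sit at 4.53 to 5.13 below the Day-0 range of 5.26 to 5.66.

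Over the 15 dogs these MTOR readings correlated at r = -0.635 (permutation p = 0.0124, adjusted p = 0.103 over 25 pairs) and rho = -0.546 (permutation p = 0.0378, adjusted p = 0.236). Without the 2 dogs farthest from the median r was -0.522, within groups it was -0.398, and with the means of groups and dog numbers removed it was -0.243. As a description of the array, 3755 pairs of tested probe sets of the same gene, from 1576 genes, had a median r of 0.348 with quartiles of 0.058 and 0.64, and 20.5% of them were below 0. The MTOR pair was singled out for its opposite directions and is the lowest of the 6 pairs of tested MTOR probe sets, the others at -0.491, -0.379, 0.0623, 0.223 and 0.223. The brighter probe set ends in s_at, which on these arrays marks probes that can match more than 1 transcript, and which transcripts each probe set reads was not tested. No single direction for MTOR mRNA is given here.

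**Figure D4:**
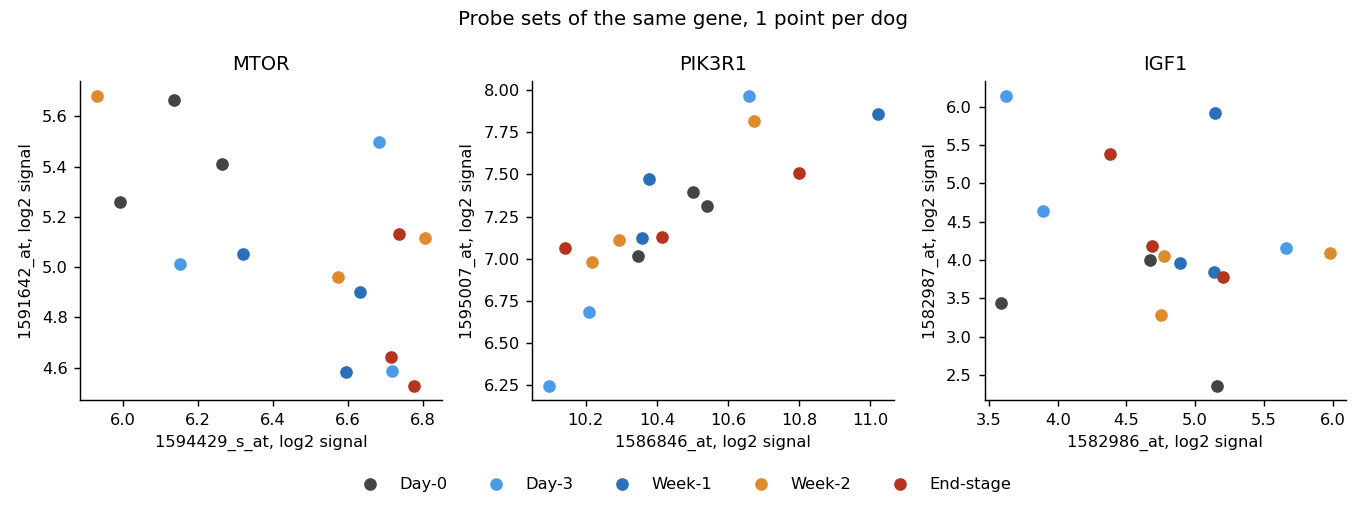
Log2 signals of 2 probe sets of the same gene plotted against each other for MTOR, PIK3R1 and IGF1, with 1 point per dog (n = 15) coloured by group. The PIK3R1 points rise together (r = 0.844) and the MTOR points slope downward (r = -0.635). The IGF1 pair, of which 1582987_at is below the filter, did not pass the threshold (r = -0.289, permutation p = 0.298, adjusted p = 0.677, rho = -0.225).

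The other tested MTOR probe sets were noisier between the isolations of a dog and gave no common pattern. For 1592243_at the signals were 20.4, 38.1 and 38.8 at Day-0, 59.8, 28.6 and 37.3 at Day-3, 50.2, 42.4 and 22.8 at Week-1, 60.6, 46.2 and 50.7 at Week-2, and 52.4, 26.5 and 25.1 at End-stage. Only the Week-2 dogs lay above all Day-0 dogs, with a difference of 0.75 (SE 0.38, limma adjusted p = 0.495, n = 3 dogs per group), and without the third isolation of every dog the Day-3, Week-1 and End-stage differences turned from 0.36, 0.23 and 0.07 to -0.29, -0.29 and -0.62. For 1597922_x_at the signals were 59.2, 49.1 and 35.3 at Day-0, 45.9, 59.5 and 39.7 at Day-3, 38.0, 63.5 and 34.1 at Week-1, 31.2, 47.3 and 20.7 at Week-2, and 38.8, 69.5 and 54.7 at End-stage. Its groups all overlapped Day-0, and the Week-2 difference of -0.58 (SE 0.34, adjusted p = 0.557 with limma) rested in part on Week-2 dog 3, whose isolations gave 3.16 to 53.3. With the median in place of the mean of the isolations that difference was 0.11. Between the isolations of 1 dog the log2 signal had an SD of 0.86 for 1597922_x_at and 0.84 for 1592243_at, against 0.27 for 1594429_s_at and 0.38 for 1591642_at.

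Between consecutive paced groups the single member value under an unadjusted p of 0.05 was that of 1597922_x_at, which lay 0.76 higher at End-stage than at Week-2 (SE 0.34, unadjusted p = 0.04, limma adjusted p = 0.999, n = 3 dogs per group). With 1 dog left out at a time this value ran from 0.46 to 1.05. Leaving out dogs does not address single isolations, and the value uses the same low Week-2 mean as above. The isolations of Week-2 dog 3 gave 52.9, 53.3 and 3.16, and those of Week-2 dog 1 gave 29.5, 75.1 and 13.8. This difference was not recomputed with the median of the isolations. The 3 MTOR probe sets below the filter, 1592179_at, 1596137_x_at and 1594428_at, had mean signals of 15.7, 6.69 and 3.43. The last of these and 1596137_x_at were drawn from the same transcript record as the brightest MTOR probe set. Both overlapped Day-0 in every paced group, and their correlations with the brightest one were -0.327 (permutation p = 0.233, adjusted p = 0.582; rho = -0.45, permutation p = 0.0933, adjusted p = 0.311; -0.16 without the 2 farthest dogs) and 0.131 (permutation p = 0.649, adjusted p = 0.854; rho = 0.321, permutation p = 0.242, adjusted p = 0.623; -0.0289 without the 2 farthest dogs). In the RefSeq gene table of the assembly UU_Cfam_GSD_1.0, MTOR and PIK3R1 are on chromosome 2, IGF1 on chromosome 15 and AKT2 on chromosome 1.

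Of the marker lists, the smooth muscle list at End-stage and the endothelial list at Week-1 lay wholly below Day-0. They are described for that reason, and no other list separated from Day-0 in any paced group. Single probe sets did not overlap Day-0 in 14.3% of cases at End-stage and 16.1% at Week-1. The 5 of 7 smooth muscle and pericyte markers on the array had a summed signal of 5102 to 5437 in the End-stage dogs against 6369 to 8239 in the Day-0 dogs. The 6 of 7 endothelial markers summed to 5360 to 5594 at Week-1 against 5928 to 6879 at Day-0. Over the 15 dogs the brightest MTOR probe set correlated with the smooth muscle list at r = -0.409 (permutation p = 0.131, adjusted p = 0.725 over 91 pairs; rho = -0.361, permutation p = 0.188, adjusted p = 0.831; -0.381 without the 2 farthest dogs) and, within groups, at 0.0037. With the macrophage markers, which stood high in some paced dogs, it correlated at r = 0.446 (permutation p = 0.0964, adjusted p = 0.725; rho = 0.271, permutation p = 0.328, adjusted p = 0.852; 0.406 without the 2 farthest dogs) and within groups at 0.33. With the endothelial markers r was -0.279 (permutation p = 0.31, adjusted p = 0.783), rho -0.139 (permutation p = 0.62, adjusted p = 0.899), and r was -0.41 without the 2 farthest dogs and -0.439 within groups. The MTOR probe set 1591642_at correlated with the macrophage markers at r = -0.402 (permutation p = 0.139, adjusted p = 0.725; rho = -0.289, permutation p = 0.295, adjusted p = 0.848; -0.0153 without the 2 farthest dogs, -0.336 within groups). With the adipocyte markers its r was -0.449 (permutation p = 0.0929, adjusted p = 0.725; rho = -0.339, permutation p = 0.213, adjusted p = 0.831; -0.055 without the 2 farthest dogs, -0.566 within groups). With the smooth muscle list its r was 0.05 (permutation p = 0.858, adjusted p = 0.98, rho = 0.107) and -0.553 within groups. With the endothelial list it was 0.251 (permutation p = 0.365, adjusted p = 0.831, rho = 0.361) and -0.0504 within groups. The largest r of an MTOR probe set with any list was 0.713, for 1596137_x_at, below the filter, with the lymphocyte markers (permutation p = 0.00347, adjusted p = 0.105, rho = 0.6; 0.787 within groups). The tested 1592243_at had r = -0.323 with the endothelial list (permutation p = 0.238, adjusted p = 0.773) and -0.751 within groups. With the smooth muscle list its r was -0.479 (permutation p = 0.072, adjusted p = 0.725) and -0.747 within groups. The values within groups carry no test. None of these relations passed the adjusted threshold. With the cardiomyocyte markers the brightest MTOR probe set had r = -0.203 (permutation p = 0.462, adjusted p = 0.876), rho = -0.025 (permutation p = 0.935, adjusted p = 0.978) and r = -0.126 without the 2 farthest dogs. That value was -0.00762 within groups and 0.739 once the means of the dog numbers were removed too, which no test accompanies. The part of these cell types in the MTOR values was not tested. Without Week-1 dog 1 and End-stage dog 1, whose arrays were named above, no member probe set was called either.

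The genes with the pattern most like that of the brightest MTOR probe set were taken as the 5 with the highest Pearson's r over 15 dogs among 7670 tested probe sets with 1 symbol of another gene. They were DNAJC30, a mitochondrial chaperone-like protein (r = 0.842), BAX, a pro-apoptotic protein (0.805), EXOSC1, an RNA exosome subunit (0.776), SPON1, a matrix protein (0.767), and FNBP1, a membrane-bending adaptor (0.765). Over all 7670 the median r was -0.0163, the highest 0.842 and the lowest -0.883. In the same order Spearman's rho was 0.707, 0.814, 0.525, 0.586 and 0.707. DNAJC30 and BAX were dim, with mean signals of 24.1 and 24.6 against the filter at 22.8. These 5 are the top of a long ranking, so their values are a description and carry no test.

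Around the members, 111 other genes of the pathway were listed in 12 lists by role, of which 52 had a probe set with a single symbol and 45 were tested, each by its brightest probe set. By limma 0 of the 45 passed the threshold in any comparison, with 6, 3, 5 and 2 at an unadjusted p of 0.05 at Day-3, Week-1, Week-2 and End-stage and 5 for all paced groups. These are 13.3%, 6.67%, 11.1%, 4.44% and 11.1% of the 45, against 8.07%, 9%, 11.2%, 8.23% and 11.7% of all probe sets. The median difference of the 45 over all paced groups was 0.01 on the log2 scale against -0.01 for all probe sets tested, and 24 of 45 lay above 0. All 3 dogs lay outside the Day-0 range for 7 of 45 genes at Day-3 (15.6%), 6 at Week-1 (13.3%), 9 at Week-2 (20%) and 5 at End-stage (11.1%), close to the shares of all probe sets given above. All 12 paced dogs did so for 3 of 45 (6.67%), against 2.52% of all probe sets.

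Those 3 genes, described because all 12 paced dogs lay outside the Day-0 range, were VEGFA, ULK1 and PPP2CA, and their values below are log2 signals or log2 differences. VEGFA, the main growth factor of endothelial cells, was 8.32 to 8.59 in the Day-0 dogs and 7.40 to 8.24 in the paced dogs. Its difference was -0.46 at Day-3, -0.65 at Week-1, -0.48 at Week-2 and -0.61 at End-stage, and -0.55 over all paced groups (SE 0.16, limma adjusted p = 0.145). ULK1, a kinase that starts autophagy and is held back by mTOR complex 1, was 7.17 to 7.31 at Day-0 and 7.32 to 8.14 in the paced dogs, a difference of 0.47 (SE 0.15, limma adjusted p = 0.175). PPP2CA, the catalytic subunit of a phosphatase that acts on Akt among many proteins, was 10.4 to 10.6 at Day-0 and 10.6 to 11.6 in the paced dogs, a difference of 0.46 (SE 0.16, limma adjusted p = 0.242). In a fit of single arrays that treats the dog as a random block, VEGFA (adjusted p = 0.0328) and PPP2CA (adjusted p = 0.00936) passed the threshold and ULK1 (adjusted p = 0.0614) did not; no member passed. That fit uses 1 correlation between the arrays of a dog for all probe sets. It called 701 of the 14302 probe sets for all paced groups, against 43 in the fit over dogs, where none of these 3 genes passed.

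Among the ligands and their partners the other values over all paced groups were smaller or less precise. The 6 tested ligands had a median of -0.16 with 1 above 0, and beside VEGFA they included FGF2 (-0.24, limma adjusted p = 0.639) and EGF (-0.16, adjusted p = 0.859). The 4 tested IGF binding proteins, which hold IGF1 outside the cell, had a median of 0.18 with 3 above 0, among them IGFBP2 (0.54, SE 0.49), IGFBP4 (0.29, SE 0.17) and IGFBP7 (0.06, SE 0.21). The 4 tested growth factor receptors had a median of 0.08 with 3 above 0. ERBB2, the neuregulin co-receptor, differed by 0.90 (SE 0.30, limma adjusted p = 0.215) at a low signal, EGFR by 0.12 and MET by -0.18. The 4 tested adaptors had a median of 0.06 with 3 above 0, with PTPN11 at 0.51 (SE 0.25, adjusted p = 0.452), SHC1 at 0.10 and SOS1 at -0.26. With 1 dog left out at a time IGFBP2 ran from 0.23 to 0.78, IGFBP7 from 0.0093 to 0.16 and PTPN11 from 0.30 to 0.68. Of the 33 pathway genes named here, 23 moved by more than 1.5 times for at least 1 dog left out.

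Inside the cell, the 2 tested PI3K subunits, PIK3C3 (0.14) and PIK3R4 (-0.12), had a median of 0.0086, and the 4 lipid phosphatases and other Akt regulators a median of 0.19 with all 4 above 0, including INPPL1 (0.26, SE 0.20, and 0.11 to 0.35 with 1 dog left out) and PPP2R1A (0.11, SE 0.10). The 4 tested mTOR partners and inhibitors had a median of -0.02, with the activating GTPase RHEB at -0.02 (SE 0.09), RRAGA at -0.02 (SE 0.09) and the inhibitor TSC2 at 0.15 (SE 0.13). The 5 mTOR targets had a median of -0.11 with 2 above 0. EIF4EBP1, the translation repressor that mTOR phosphorylates, differed by 0.35 (SE 0.14, limma adjusted p = 0.31), ULK1 by the value above and EIF4E by -0.17.

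Of the 4 Akt targets, with a median of 0.03, FOXO3 differed by 0.21 (SE 0.35), GSK3B by 0.25 (SE 0.16) and MDM2 by -0.14 (SE 0.11). The atrophy ubiquitin ligase FBXO32, the only gene of its list with a tested probe set, differed by -0.14 (SE 0.22). The 4 genes of the AMPK branch had a median of 0.02, with PRKAG2 at -0.21 (SE 0.11, limma adjusted p = 0.501), PRKAG1 at -0.06 and SESN1 at 0.14. The 3 genes of the Ras-MAP kinase branch had a median of 0.04, with HRAS at 0.12, MAP2K1 at 0.04 and NRAS at -0.05, each with an SE of 0.17 or less. No list had a member past the threshold in either direction.

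**Figure D5:**
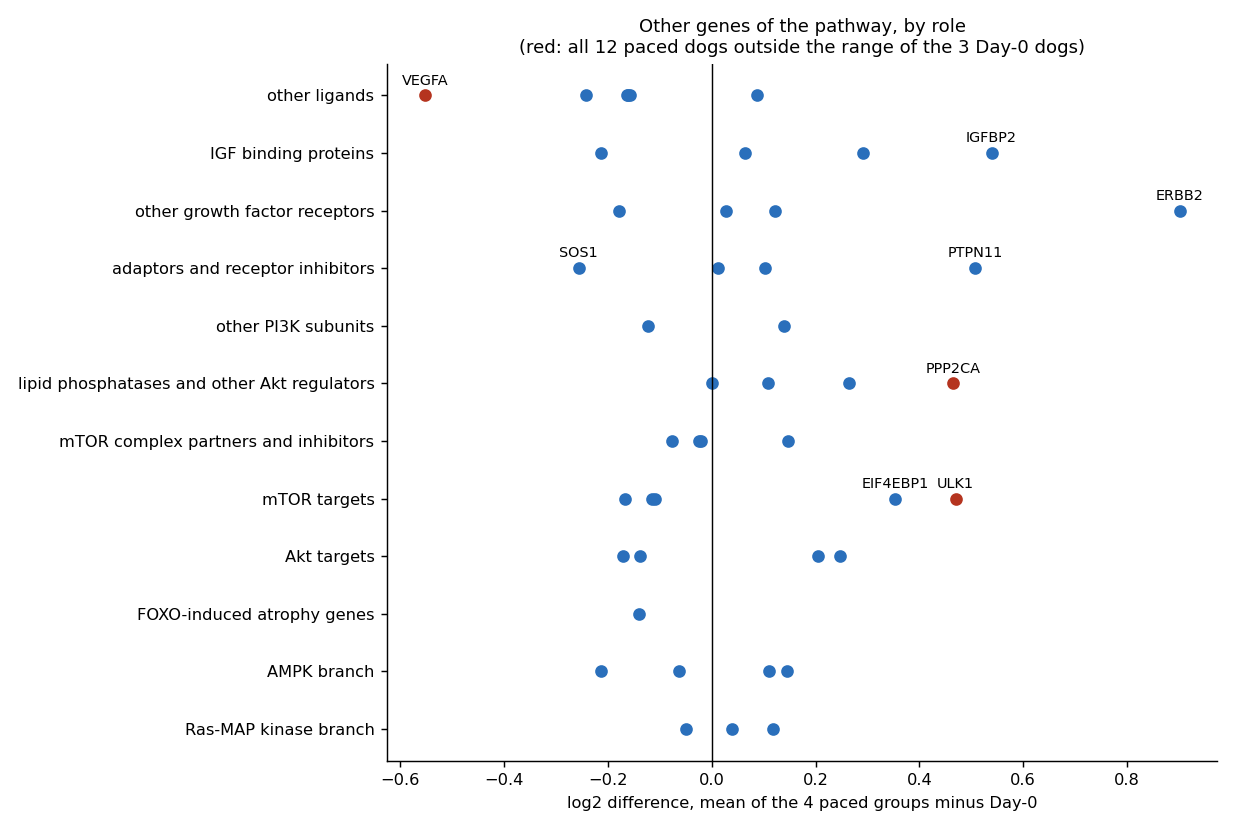
Log2 difference between the mean of the 4 paced groups and Day-0 (x axis) for each of the 45 tested pathway genes outside the members, 1 point per gene, arranged by list (y axis). The 3 red points, VEGFA at -0.55, PPP2CA at 0.46 and ULK1 at 0.47, are the genes whose 12 paced dogs all lay outside the Day-0 range, and ERBB2 at 0.90 has the largest difference.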

How the data were processed

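Per the submitters' processing notes, GCOS 1.4 and MAS5 made the signals. Each deposited value is the linear signal intensity of a probe set, and the authors' scale was read from the values: the mean without the lowest and highest 2% of probe sets was 150.02 to 150.026 on every array. Of 23913 probe sets, 77 controls were left out. Arrays have no sequencing depth, and the 3 dogs per group limit the precision. Gene symbols of probe sets are those of the platform annotation; current symbols and chromosomes came from RefSeq (UU_Cfam_GSD_1.0).

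Log2 signals were averaged over the 3 isolations of a dog, so p-values rest on the spread between dogs. The dimmest 40% were left out. One mean per group was fitted over 15 dogs with limma 3.58.1 (lmFit, eBayes with an intensity trend; R 4.3.3), two-sided, with Benjamini-Hochberg adjustment over 14302 probe sets, of which 7674 had 1 symbol, 100 several and 6528 none. The code of the fit was checked on simulated dog means with larger planted differences than those of the tested member probe sets. That check therefore does not show how often differences of the members' size would be called. Permutation p-values used 100000 resamples, two-sided. The members, lists and tests were chosen with earlier results of these data known, and the correlations and the summary of probe set pairs were added after seeing the data. Named pathway genes were, in each list, the up to 3 with the smallest F test p.

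Dog numbers are shared between groups. The deviations of same-numbered dogs correlated above 0.1 for every number for Week-1 against Day-3 (0.167, 0.296 and 0.318) and End-stage against Week-2 (0.23, 0.242 and 0.102), and for no comparison with Day-0. Alternatives were other normalizations, filters, log offset, averaging, sample sets, variance model, replicate block, single arrays with dog as a random block, and leaving out dogs or isolations.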

Additional observations from a re-analysis of the deposited data

How the results depend on the processing

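Under every alternative tried, limma called 0 member probe sets in each of the 10 comparisons, also when the 45 arrays were fitted singly with dog as a random block. The MTOR probe sets 1594429_s_at and 1591642_at kept their signs in the 5 comparisons with Day-0 under every alternative that could be fitted. At End-stage their differences ran from 0.50 to 0.68 (adjusted p 0.104 to 0.761) and from -0.86 to -0.46 (adjusted p 0.291 to 0.885). Counts over all probe sets did move: against the 0, 4, 12 and 2 called at Day-3, Week-1, Week-2 and End-stage and the 43 for all paced groups, the alternatives on dogs gave 0 to 23, 0 to 17, 0 to 88, 0 to 11 and 1 to 219. The trend gave 0 to 20 against 7 and the F test 0 to 13 against 0. With 45 arrays the counts were 273, 377, 483, 322, 701, 379 and 493. The replicate block gave 17 at Week-1, 88 at Week-2 and 219 for all paced groups, and changed no member call. Without Day-0 replicate 2, 1 probe set was called for all paced groups, and without Week-2 replicate 2, 0 were called at Week-2. The cause was not tested.

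Signs that turned belong to differences that never passed the threshold, and their cause was not tested. Quantile normalization turned MTOR 1597922_x_at at Day-3 (-0.019). Median centring turned the same value (-0.028), PIK3R1 1595007_at at Week-2 (-0.024), at End-stage (0.038) and over all paced groups (-0.0091), and PIK3R1 1586846_at at End-stage (0.036). The median of the 3 arrays turned MTOR 1592243_at (-0.025), AKT2 (-0.034) and MTOR 1597922_x_at (0.36) at Week-1, and AKT2 (-0.046) and MTOR 1597922_x_at (0.11) at Week-2. Over all paced groups it turned PIK3R1 1595007_at (-0.0086), AKT2 (-0.12), MTOR 1597922_x_at (0.29) and RHEB (0.0058). Without Week-1 dog 1 and End-stage dog 1, MTOR 1592243_at turned at Week-1 (-0.0024) and End-stage (-0.27), PIK3R1 1586846_at at End-stage (0.14) and over all paced groups (0.042), PIK3R1 1595007_at at End-stage (0.075) and RHEB over all paced groups (0.0058).

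Without isolation 1, PIK3R1 1586846_at turned at Week-2 (0.021) and IGF1 1582986_at at End-stage (-0.0093). PIK3R1 1586846_at (0.00091), PIK3R1 1595007_at (-0.016), MTOR 1597922_x_at (0.097) and RHEB (0.0062) turned over all paced groups. Without isolation 2, IGF1 1582986_at (0.22), AKT2 (0.020) and MTOR 1597922_x_at (-0.14) turned at Day-3, and PIK3R1 1595007_at (0.051) and MTOR 1597922_x_at (-0.16) at End-stage. PIK3R1 1595007_at (-0.036), EGFR (-0.032) and NRAS (0.025) turned over all paced groups. Without isolation 3, MTOR 1592243_at (-0.29) and 1597922_x_at (-0.071) turned at Day-3, the same pair at Week-1 (-0.29 and 0.12), and PIK3R1 1586846_at (0.032), MTOR 1592243_at (-0.62) and PIK3R1 1595007_at (0.033) at End-stage. Over all paced groups MTOR 1592243_at (-0.25), AKT2 (-0.0041) and MTOR 1597922_x_at (0.0047) turned.

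With each dog left out in turn, the Day-3 difference of IGF1 1582986_at ran from -0.71 to 0.31, of MTOR 1597922_x_at from -0.18 to 0.20, of PIK3R1 1595007_at from -0.78 to 0.083 and of AKT2 from -0.078 to 0.022. At Week-1 MTOR 1592243_at ran from -0.078 to 0.57, MTOR 1597922_x_at from -0.38 to 0.070, PIK3R1 1586846_at from -0.094 to 0.24 and AKT2 from -0.048 to 0.23. At Week-2 PIK3R1 1595007_at ran from -0.20 to 0.22 and PIK3R1 1586846_at from -0.21 to 0.020. At End-stage IGF1 1582986_at ran from -0.16 to 0.63, PIK3R1 1586846_at from -0.19 to 0.14, PIK3R1 1595007_at from -0.15 to 0.075, MTOR 1592243_at from -0.27 to 0.26, MTOR 1597922_x_at from -0.030 to 0.40 and AKT2 from -0.23 to 0.11. Over all paced groups IGF1 1582986_at ran from -0.072 to 0.71, PIK3R1 1586846_at from -0.083 to 0.014, PIK3R1 1595007_at from -0.12 to 0.094, MTOR 1597922_x_at from -0.33 to 0.047 and AKT2 from -0.00061 to 0.085. Of the named pathway genes, TSC2 ran from -0.0026 to 0.23, MAP2K1 from -0.00034 to 0.10, RRAGA from -0.061 to 0.039, EGFR from -0.062 to 0.31, RHEB from -0.062 to 0.031 and NRAS from -0.13 to 0.0092.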
